A study of Mus musculus with 28 samples.

Results

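Tetraspanins are small proteins that cross the cell membrane several times and gather integrins, immunoglobulin-like proteins, proteases and receptors around them into membrane domains. In the brain they are found in compact myelin, in the lysosomes of microglia, on astrocytes and at synapses. The 8 tetraspanins described here are Tspan2, Cd9, Tspan3, Cd82, Cd63, Cd81, Cd151 and Tspan7, and each symbol was matched to its Ensembl gene. These genes were chosen with earlier results of these data known, and all 8 are described whatever their values. They are 8 of the 55414 genes in the tables. A second list of 23 further tetraspanin genes gives the rest of the family for comparison. Of the 8, 7 passed the filter on low counts and entered the tests. Cd82 did not, and its counts are given without a model.

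The genes differ in what they are known for. Tspan2 is made by oligodendrocytes as they mature, and Cd9 lies in the myelin of the brain and of peripheral nerve. Tspan3 was described as a partner of claudin-11, the tight junction protein of myelin, and Cd82 limits cell migration and has been tied to oligodendrocyte maturation. Cd63 resides in late endosomes, lysosomes and exosomes, and Cd81 binds the immunoglobulin proteins Igsf8 and Ptgfrn and is abundant on astrocytes and microglia. Cd151 holds laminin-binding integrins, and Tspan7, whose gene is on the X chromosome, binds PICK1 and shapes the traffic of AMPA-type glutamate receptors in neurons.

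The data are 28 mouse whole-brain 3′ mRNA libraries in 4 groups of 7. All mice carried floxed TNFR1 alleles (TNFR1ff) and, per the series' design text, the TNFR1ff line was backcrossed onto C57BL/6. Cuprizone is a copper chelator that kills oligodendrocytes when fed, and myelin returns once it is withdrawn. The groups were TNFR1ff mice with no cuprizone (naive, code CPZ0), TNFR1ff mice at peak demyelination (CPZ5), mgTNFR1KO mice in remyelination (CPZ6+1) and TNFR1ff mice in remyelination (CPZ6+1), and no unit is given for these codes. The mgTNFR1KO mice are Cx3cr1-CreER.Tnfr1ff and were given tamoxifen, so that Cre works in cells with an active Cx3cr1 locus, which are microglia and also other Cx3cr1-expressing myeloid cells. The sources used here do not say whether the TNFR1ff groups received tamoxifen, or give age or sex. Nothing states that the 7 samples of a group are separate animals, so p-values measure the spread between these samples, which may be partly technical. In bulk tissue, fewer cells of a type and less RNA per cell cannot be told apart.

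In naive libraries the total lay between 1522919 and 2150495 counts, in demyelination libraries between 1695212 and 2417153, in mgTNFR1KO remyelination between 1531710 and 2986501, and in TNFR1ff remyelination between 1864544 and 3137252. Levels are CPM, counts relative to TMM-scaled library sizes, which in a 3′ tag assay need no correction for transcript length, and on this scale 3 counts correspond to between 0.954 and 2.39 CPM. The gene with the most counts took 1.33% of mgTNFR1KO library 1 and 25.54% of naive library 1. Both libraries stand apart in this, and some results that rest on them are also given without them. The tissue label matched its defining markers: the myelin genes Mbp and Mog, the neuronal genes Snap25, Syt1 and Rbfox3 and the astrocyte genes Gfap, Aqp4 and Slc1a3 were counted in all 28 libraries. The targeted gene Tnfrsf1a differed by a log2 fold change of -0.05 ± 0.167 (SE) between mgTNFR1KO and TNFR1ff remyelination, and this checks nothing, since 3′ tags come from the end of the transcript, the deleted part is not given in the sources used here and only some brain cells lose the gene.

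The promoter windows of the 2 tetraspanins that passed a test are shown first, because they are the loci behind those results. The sequences are from RefSeq on GRCm38.p6, while the counts were made on GRCm39. Each runs 5′ to 3′ on the gene's strand, the plus strand here, from 250 bases before to 50 bases after an annotated start. Capitals mark the letters ACAAAG, the core of sites for SOX family factors, or its reverse complement. Tspan2 has a pair of annotated starts on chromosome 3, at chr3:102734520-102734819 (window A) and chr3:102734965-102735264 (window B), and Cd63 has 1 on chromosome 10, at chr10:128909095-128909394.
Tspan2 window A: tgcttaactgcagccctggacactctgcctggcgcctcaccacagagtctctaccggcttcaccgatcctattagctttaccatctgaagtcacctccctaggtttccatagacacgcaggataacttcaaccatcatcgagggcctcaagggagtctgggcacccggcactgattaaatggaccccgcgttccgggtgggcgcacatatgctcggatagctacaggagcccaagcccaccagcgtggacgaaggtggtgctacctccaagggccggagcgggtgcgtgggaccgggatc
Tspan2 window B: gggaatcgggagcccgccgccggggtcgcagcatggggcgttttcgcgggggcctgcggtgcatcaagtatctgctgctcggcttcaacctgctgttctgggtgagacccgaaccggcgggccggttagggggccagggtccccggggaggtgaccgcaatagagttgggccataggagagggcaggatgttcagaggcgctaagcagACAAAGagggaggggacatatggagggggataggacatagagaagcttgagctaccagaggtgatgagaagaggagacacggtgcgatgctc
Cd63: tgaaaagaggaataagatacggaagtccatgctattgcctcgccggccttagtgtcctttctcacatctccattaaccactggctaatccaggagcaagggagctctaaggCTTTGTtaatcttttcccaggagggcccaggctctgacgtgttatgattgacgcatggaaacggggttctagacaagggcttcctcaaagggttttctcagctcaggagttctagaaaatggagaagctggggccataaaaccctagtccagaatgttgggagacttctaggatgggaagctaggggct
Window A of Tspan2 had 59.3% G and C and 17 CG pairs, window B 62.7% and 19, and the Cd63 window 49.3% and 6, against a median of 52.7% G and C over 32851 promoter windows of the same length. Matches of 5 motifs were sought on both strands, and no match overlapped one of another motif. ACAAAG stood 42 bases before the start in Tspan2 window B and 139 bases before it in the Cd63 window, and 18.7% of all windows held it. Window B lies wholly downstream of window A. Its match is therefore before the second annotated start of Tspan2 but after the first. The other motifs were CACGTG (the E-box, in 7.15% of all windows), GGGCGG (the GC box, 35.7%), TATAAA (13.6%) and AGGAAGT (a core of PU.1 sites, 9.35%), and none was in these 3 windows. GGGCGG was in windows of Cd82, Cd9, Cd151, Cd81 and Tspan7. All 8 genes had a window, 13 in all, and a match is a description of letters, not a binding site.

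At the peak of demyelination, Tspan2 fell and Cd63 rose against naive brains, and the other 5 tested tetraspanins did not pass. Tspan2 had 23.9 ± 6.45 CPM in demyelinated brains, against 52.3 ± 17.0 CPM in naive brains (mean ± SD, n = 7 each). Over single libraries Tspan2 ran from 18.0 CPM through a median of 23.2 to 37.1 CPM in demyelination, against 37.0 CPM through 49.5 to 86.7 CPM in naive. Thus 6 of 7 demyelination libraries lay below every naive library, and the groups touched only through demyelination library 5. The log2 fold change of Tspan2 was -1.10 ± 0.174 (SE), with a 95% interval from -1.45 to -0.75, and the adjusted p was 3.5e-05 by the edgeR quasi-likelihood test, adjusted by Benjamini-Hochberg over the 12423 tested genes. This test and adjustment stand behind every adjusted p below unless another is named. Its highest naive value, 86.7 CPM, came from naive library 1, and without that library the log2 fold change was -0.95 (adjusted p = 0.00016).

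Cd63, the tetraspanin of late endosomes and lysosomes, had 106 ± 14 CPM in demyelinated brains and 71.1 ± 15.4 CPM in naive brains. Its libraries ran from 79.1 CPM through a median of 112 to 119 CPM in demyelination, against 52.5 CPM through 70.8 to 100 CPM in naive. All but demyelination library 5 lay above every naive library, and the highest naive value belonged to naive library 3. The log2 fold change was 0.57 ± 0.133 (SE; 95% interval 0.31 to 0.84; adjusted p = 0.00885), a fold of 1.49. Without naive library 1 it was 0.52 (adjusted p = 0.0316). Cd63 shares reads with a near-identical copy: 51.1% of the 50-base words in the last 500 bases of its transcripts also occur in the pseudogene Cd63-ps, per GENCODE M21. Cd63-ps held 0 to 8 counts per library, at most 5.17% of the pair, and with both genes' counts added the log2 fold change was 0.56 (adjusted p = 0.0101), an alternative chosen after seeing the data. The other 7 genes shared no such words.

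**Figure D1:**
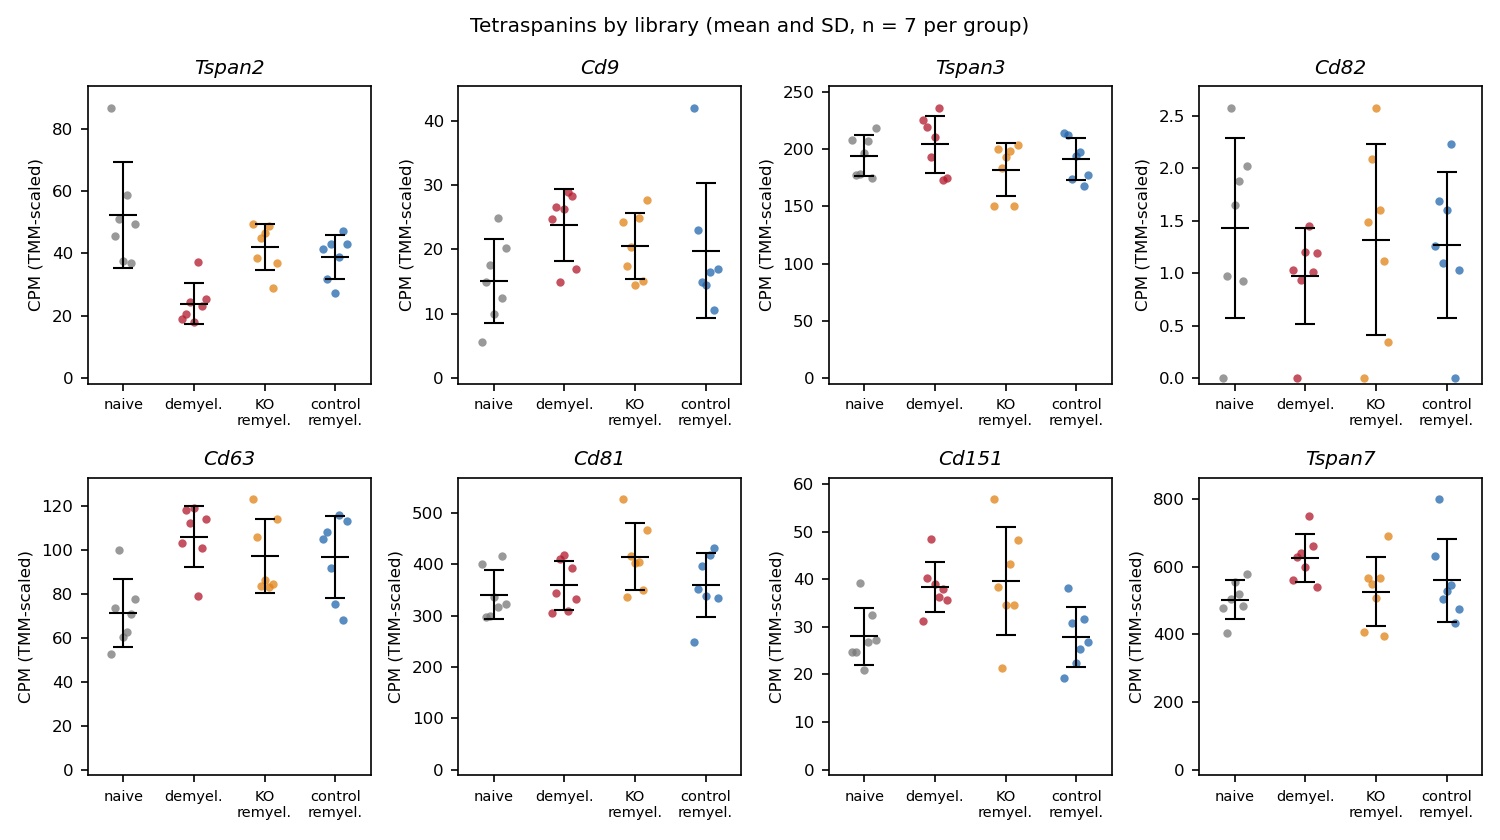
Level of each of the 8 tetraspanins in every library, in CPM on scaled library sizes (y axis, linear), for naive, demyelination, mgTNFR1KO (KO) remyelination and TNFR1ff (control) remyelination (x axis); points are libraries, the long tick the mean and the bars 1 SD (n = 7). The demyelination points of Tspan2 lie between 18.0 and 37.1 CPM, under nearly all naive points, and those of Cd63 between 79.1 and 119 CPM, over nearly all naive points.

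Of the 8 genes, 1 was thus called higher and 1 lower out of 7 tested, where 2.0% of all tested genes were called in either direction, 1.30% higher and 0.700% lower. Over all genes the split between higher and lower calls was 162 against 87, and it was 192 against 59 with library totals in place of scaled sizes. An unadjusted p under 0.05 was reached by 5 of the 7 tetraspanins, against 13.3% of all genes. Their median log2 fold change was 0.31, beside -0.005 over all genes. Because these genes were chosen with earlier results of these data known, such shares, here and below, are no test of the set.

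Cd9, the other tetraspanin of compact myelin among these genes, had 23.8 ± 5.55 CPM in demyelinated brains, against 15.1 ± 6.49 CPM in naive brains. All 7 demyelination libraries lay above the naive median of 15.0 CPM, and 4 of them lay above the highest naive value of 24.9 CPM. The log2 fold change of 0.62 ± 0.252 (SE) did not pass (adjusted p = 0.241), and its interval ran from 0.11 to 1.13. The lowest naive value, 5.57 CPM, came from naive library 1. Leaving out 1 library of these groups at a time gave log2 fold changes from 0.5 to 0.78 and adjusted p from 0.14 to 0.405. Cd9 was thus not lower where Tspan2 was. Over the 28 libraries the log CPM of Cd9 had a Pearson r of -0.38 with Tspan2 and 0.59 with Cd63. On deviations from group means these were -0.1 and 0.43, and they are descriptions without a test. Tspan3, the claudin-11 partner, had 204 ± 24.9 CPM in demyelinated and 194 ± 17.7 CPM in naive brains. Its log2 fold change was 0.07 with an interval from -0.12 to 0.27 (adjusted p = 0.798), which excludes a loss of the size seen for Tspan2.

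Cd151, the integrin partner, had 38.4 ± 5.28 CPM in demyelinated and 28 ± 6.03 CPM in naive brains (log2 fold change 0.45 ± 0.17, adjusted p = 0.195). All 7 demyelination libraries lay above the naive median of 26.8 CPM, but only 2 lay above the highest naive value of 39.2 CPM. Tspan7, the neuronal PICK1 partner, had 625 ± 69.7 CPM in demyelinated brains, against 502 ± 57.3 CPM in naive brains. Here 5 of 7 demyelination libraries lay above every naive library, and the log2 fold change was 0.31 ± 0.117 (adjusted p = 0.185). Cd81 had 359 ± 47.6 CPM in demyelinated and 341 ± 48.0 CPM in naive brains, a log2 fold change of 0.08 with an interval from -0.15 to 0.30 (adjusted p = 0.831).

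Cd82 was near the limit of detection in all groups. Summed over 7 libraries it held 20 counts in naive, 14 in demyelination, 19 in mgTNFR1KO remyelination and 22 in TNFR1ff remyelination. The CPM averaged 1.43 ± 0.859 in naive, 0.973 ± 0.46 in demyelination, 1.32 ± 0.913 in mgTNFR1KO remyelination and 1.27 ± 0.695 in TNFR1ff remyelination libraries (SD, n = 7 each). Each group had a library with no count. Exact two-sided permutation tests on CPM in the 5 comparisons gave p from 0.244 to 0.914 and from 0.875 to 0.914 after Benjamini-Hochberg adjustment over the 5, so a difference was not detectable at this depth.

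Many genes of myelin and of activated microglia moved in the same comparison, and fewer or none of other cell types. Of 26 genes of myelin and mature oligodendrocytes, 18 fell and 1 rose in demyelinated brains, with a median log2 fold change of -1.11 beside -0.005 over all genes. Their summed level ranged from 3390 to 4540 CPM in demyelinated brains, against 7240 to 8380 CPM in naive brains. Of 20 genes of activated microglia, 19 rose, with a median of 2.18, and their sum ranged from 3180 to 4970 CPM in demyelinated brains, against 1760 to 2100 CPM in naive brains. By group means, Apoe alone made up most of this sum in every group. It had 2470 ± 471 CPM in demyelinated and 1210 ± 105 CPM in naive brains, so the sums of this list, here and below, largely follow Apoe. Among the first-named markers of both lists, Mbp had a log2 fold change of -0.94, Lyz2 of 2.92 and Ctsd of 1.54 in this comparison. Of 15 tested genes of homeostatic microglia 9 rose, with a median of 1.1, but the first-named markers of this list were not among them. The log2 fold change of P2ry12 was -0.49 (adjusted p = 0.255) and that of Tmem119 -0.18 (adjusted p = 0.83), and P2ry13, which was not tested, had 4.12 ± 1.18 CPM in demyelinated and 3.87 ± 2.15 CPM in naive brains. Of 11 astrocyte genes 3 rose, and of the lists for oligodendrocyte precursors (13 genes), neurons (12), endothelial and mural cells (12) and choroid plexus with ependyma and meninges (8 tested) none passed in either direction. The defining lymphocyte markers Cd3e, Cd3g and Cd79a were at 0 in most libraries. The part of these cell types in the changes of Tspan2 and Cd63 was not tested. The fall of Tspan2, -1.10, was close to the median of the myelin list, whereas the rise of Cd63, 0.57, was below that of every gene of the activated microglia list, whose lowest was 0.64; no test of these differences was made.

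**Figure D2:**
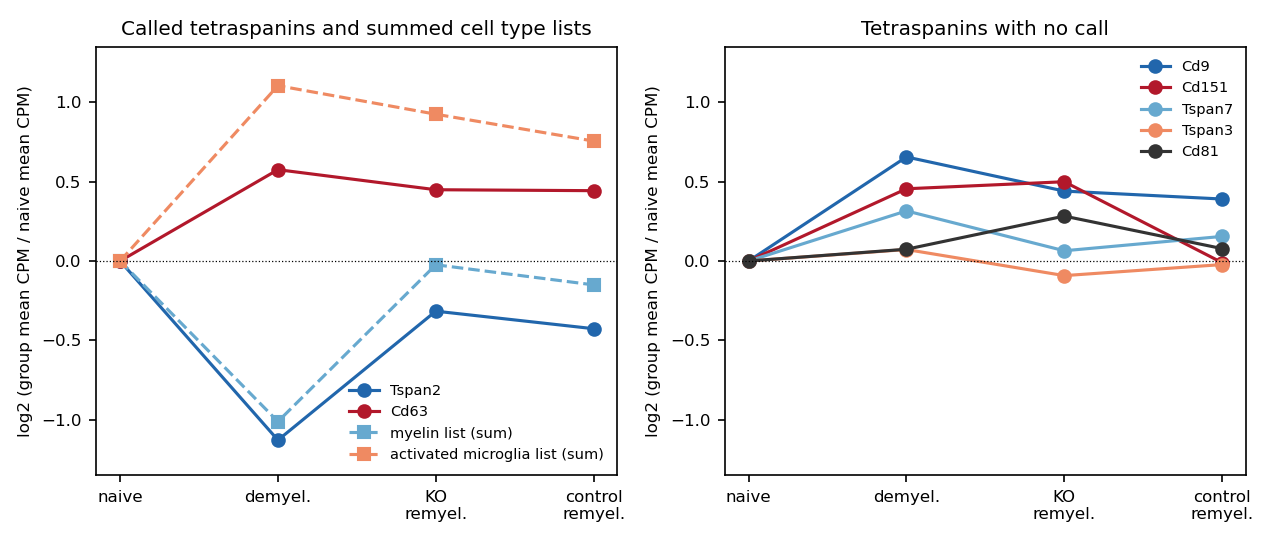
Log2 ratio of the group mean CPM to the naive mean CPM (y axis) for naive, demyelination, KO remyelination and control remyelination groups (x axis); circles are tetraspanins, and squares with dashed lines are the summed levels of the myelin and activated microglia lists. The called genes are on the left. Tspan2, at 23.9 CPM in demyelination against 52.3 CPM in naive, moves with the myelin sum. Cd63, at 106 against 71.1 CPM, moves with the activated microglia sum by a smaller step. Apoe makes up most of the activated microglia sum in every group. The genes with no call are on the right.

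In TNFR1ff remyelination against demyelination no tetraspanin passed the test, although Tspan2 came close. Tspan2 had 38.9 ± 7.00 CPM in remyelinating brains and 23.9 ± 6.45 CPM in demyelinated brains. The remyelination libraries ran from 27.2 CPM through a median of 41.5 to 47.1 CPM, all above the demyelination median, and 5 of 7 lay above every demyelination library. The log2 fold change was 0.69 ± 0.175 (SE; 95% interval 0.33 to 1.04; adjusted p = 0.0706), where 0.386% of all tested genes were called. The call turned with the setting: DESeq2 gave an adjusted p of 0.0278, and without demyelination library 5 or TNFR1ff remyelination library 4 edgeR gave 0.0162 and 0.0437. Over the 14 fits that each leave out 1 library of these groups, the adjusted p of Tspan2 lay between 0.0162 and 0.187. In the same comparison 13 of the 26 myelin genes rose and none fell, with a median log2 fold change of 0.86, and their sum ranged from 6250 to 7800 CPM in TNFR1ff remyelination, against 3390 to 4540 CPM in demyelination.

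Cd63 had 96.7 ± 18.8 CPM in remyelinating brains, against 106 ± 14 CPM in demyelinated brains, with a log2 fold change of -0.13 and an interval from -0.39 to 0.13 (adjusted p = 0.935). The activated microglia list had 4 members called lower and none higher, with a median of -0.62 and a summed level of 2700 to 3470 CPM in TNFR1ff remyelination, against 3180 to 4970 CPM in demyelination. Cd151 had 27.8 ± 6.32 CPM in remyelinating and 38.4 ± 5.28 CPM in demyelinated brains, and 5 of 7 remyelination libraries lay below every demyelination library. Its log2 fold change of -0.46 ± 0.167 did not pass (adjusted p = 0.467). Cd9, Cd81, Tspan3 and Tspan7 had log2 fold changes between -0.24 and 0.00, with adjusted p between 0.894 and 0.998. Without TNFR1ff remyelination library 1, which had the highest Cd9 level, the log2 fold change of Cd9 was -0.55 in place of -0.24 (adjusted p = 0.462). An unadjusted p under 0.05 was reached by 2 of the 7 genes, Tspan2 and Cd151, against 6.65% of all genes.

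Against naive brains, TNFR1ff remyelination also gave no call among the 7 tetraspanins, where 0.628% of all genes were called. DESeq2 called none either, and 2 had an unadjusted p under 0.05, against 10.4% of all genes. These were Cd63, with 96.7 CPM in remyelination and 71.1 CPM in naive brains (log2 fold change 0.44 ± 0.133, adjusted p = 0.121), and Tspan2, with 38.9 CPM in remyelination and 52.3 CPM in naive brains (-0.41 ± 0.166, adjusted p = 0.322). Of the Cd63 libraries in remyelination, 6 of 7 lay above the naive median and 4 above the highest naive value. Naive library 3 changed the call: without it the log2 fold change of Cd63 was 0.54 and the adjusted p 0.0406. Leaving out 1 library of these groups at a time gave adjusted p for Cd63 from 0.0406 to 0.269, with a call in 1 of 14 fits. Of the 20 activated microglia genes 14 rose in this comparison, and of the 26 myelin genes none passed in either direction, and their part in these values was not tested. For Tspan2 all 7 remyelination libraries lay below the naive median of 49.5 CPM, but only 2 below the lowest naive value, and without naive library 1 the log2 fold change was -0.26 (adjusted p = 0.603). Cd9 depended on a single library: 42.0 CPM in TNFR1ff remyelination library 1 stood above the next value of 23.0 CPM, and without it the log2 fold change was 0.074 in place of 0.38. The remaining genes had intervals of -0.36 to 0.34 for Cd151, -0.21 to 0.17 for Tspan3, -0.15 to 0.30 for Cd81 and -0.08 to 0.39 for Tspan7.

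Between mgTNFR1KO and TNFR1ff remyelination none of these genes was called, where 0.0483% of all genes (6 of 12423) were. DESeq2 called none of the tetraspanins. These groups differ in the Cx3cr1-CreER allele as well as in TNFR1, and whether they differ in tamoxifen is not given. Cd151 alone had an unadjusted p under 0.05 (0.00405), against 7.49% of all genes. Its libraries ran from 21.4 CPM through a median of 38.4 to 56.8 CPM in mgTNFR1KO brains, against 19.3 CPM through 26.9 to 38.2 CPM in TNFR1ff brains. Of the mgTNFR1KO libraries 4 of 7 lay above every TNFR1ff library, and the lowest lay below the TNFR1ff median. The log2 fold change was 0.51 ± 0.167 with an interval from 0.17 to 0.84 (adjusted p = 0.535), and without mgTNFR1KO library 1 it was 0.41 (adjusted p = 0.447). The summed level of the 10 genes for choroid plexus, ependyma and meninges ranged from 961 to 1400 CPM in mgTNFR1KO brains, against 586 to 1080 CPM in TNFR1ff brains. Its most abundant gene, the choroid plexus gene Ttr, had 1010 ± 134 CPM in mgTNFR1KO brains and 644 ± 174 CPM in TNFR1ff brains (log2 fold change 0.64, adjusted p = 0.114), the highest fold change of the list. Of its 8 tested genes none passed in edgeR, 2 had an unadjusted p under 0.05 and DESeq2 called 1, with a median log2 fold change of 0.18 and a lowest of -0.06, and the part of this tissue in the Cd151 values was not tested.

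Cd63 and Tspan2 each had close mean levels in mgTNFR1KO and TNFR1ff remyelination. Cd63 had 97.1 ± 16.8 CPM in mgTNFR1KO and 96.7 ± 18.8 CPM in TNFR1ff remyelination, with an interval for the log2 fold change from -0.26 to 0.26. Tspan2 had 42.0 ± 7.48 CPM in mgTNFR1KO and 38.9 ± 7.00 CPM in TNFR1ff remyelination, with an interval from -0.22 to 0.45. Cd81 had 415 ± 65.7 CPM in mgTNFR1KO and 360 ± 62.7 CPM in TNFR1ff remyelination (interval -0.02 to 0.43), and its log2 fold change was 0.14 without mgTNFR1KO library 1, in place of 0.21. Tspan7 had 525 ± 102 CPM in mgTNFR1KO and 559 ± 122 CPM in TNFR1ff remyelination (-0.33 to 0.15), and Tspan3 had 182 ± 23.1 CPM in mgTNFR1KO and 191 ± 18.3 CPM in TNFR1ff remyelination (-0.26 to 0.12). Cd9 had 20.5 ± 5.13 CPM in mgTNFR1KO and 19.8 ± 10.5 CPM in TNFR1ff remyelination, and its interval of -0.44 to 0.54 was the widest of the 7. Without TNFR1ff remyelination library 1 its log2 fold change was 0.35 in place of 0.05. These intervals leave room for modest differences in either direction and do not show that the genotypes are alike.

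**Figure D3:**
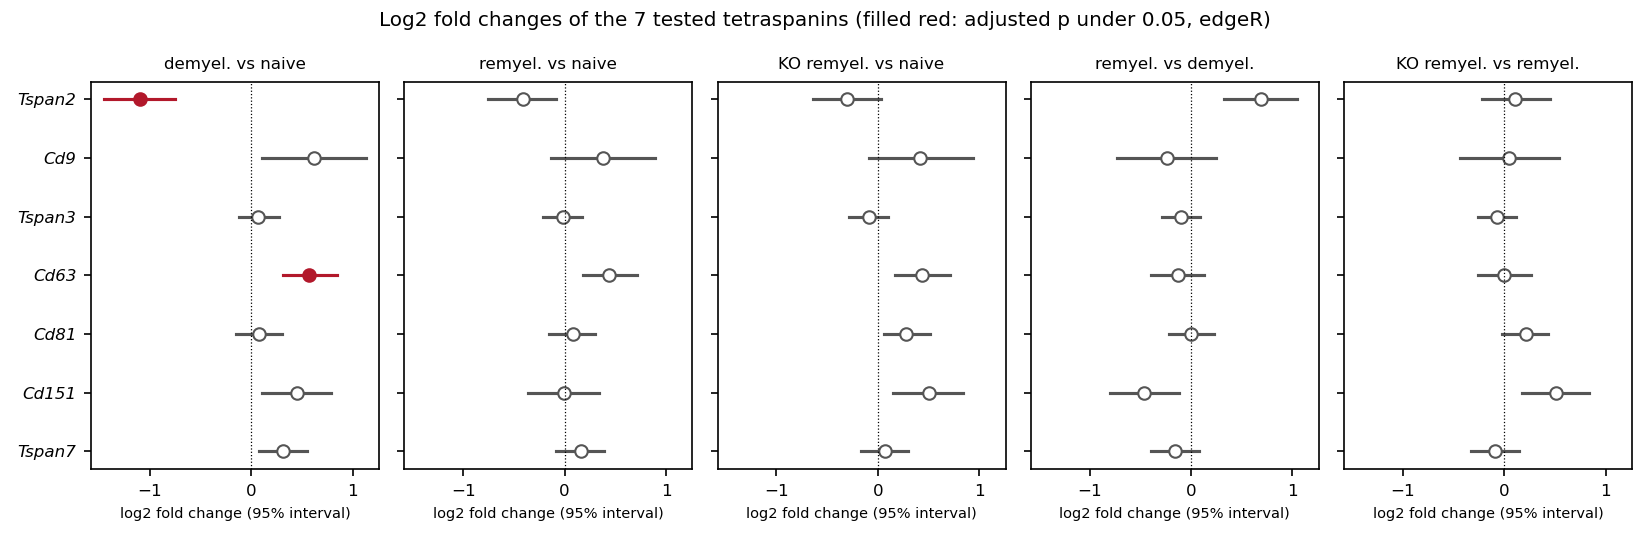
Log2 fold change (x axis, first group over second) with its 95% interval for the 7 tested tetraspanins (rows) in 5 comparisons (panels), from edgeR; filled red points have an adjusted p under 0.05. The 2 filled points are Tspan2 at -1.10 and Cd63 at 0.57 in demyelination against naive, and in the panel of KO against control remyelination all intervals except that of Cd151 include 0.

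The mgTNFR1KO remyelination group was also set against naive brains, from which it differs in genotype as well as in cuprizone exposure. This comparison shares its naive and knockout libraries with those above, and all 5 comparisons share groups in this way, so that their values are not independent. None of the 7 genes was called, where 3.24% of all genes were, and 3 had an unadjusted p under 0.05, against 18.9% of all genes. Cd63 had 97.1 CPM in mgTNFR1KO and 71.1 CPM in naive brains, and all 7 mgTNFR1KO libraries lay above the naive median. Its log2 fold change was 0.44 ± 0.133 (95% interval 0.17 to 0.71; adjusted p = 0.0539), and DESeq2 put it past the threshold (adjusted p = 0.0342). Without naive library 3, mgTNFR1KO library 4 or mgTNFR1KO library 5 edgeR gave 0.0212, 0.0482 and 0.0443, and without the 2 libraries that stood apart 0.149. Of the activated microglia genes 18 of 20 rose here, with a summed level of 3070 to 4200 CPM in mgTNFR1KO brains, against 1760 to 2100 CPM in naive brains, and their part in the Cd63 values was not tested. Cd151 had 39.6 ± 11.3 CPM in mgTNFR1KO and 28 ± 6.03 CPM in naive brains (log2 fold change 0.50, adjusted p = 0.093). In the 14 fits that each leave out 1 library of these groups, its log2 fold change lay between 0.4 and 0.6. The adjusted p of these fits lay between 0.0391 and 0.217, and only the fit without mgTNFR1KO library 3, its lowest, gave a call (0.0391). Cd81 had 415 ± 65.7 CPM in mgTNFR1KO and 341 ± 48.0 CPM in naive brains (0.28, adjusted p = 0.154), and Tspan2 had 42.0 CPM in mgTNFR1KO and 52.3 CPM in naive brains (-0.30, adjusted p = 0.324). Without naive library 1 the log2 fold change of Tspan2 was -0.15 (adjusted p = 0.649), and without both libraries that stood apart -0.19 (adjusted p = 0.517).

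By group means, Tspan2 was highest in naive brains, then in mgTNFR1KO remyelination, TNFR1ff remyelination and demyelination. Of the 5 tested pairs only its lowest and highest group differed beyond the test. Cd63 had the opposite ends, highest in demyelination and lowest in naive brains, with both remyelination groups between them. Cd9 also had its highest mean in demyelination and its lowest in naive brains, and so did Tspan7, while Cd151 had its highest means in mgTNFR1KO remyelination and demyelination. Cd81 was highest in mgTNFR1KO remyelination, and Tspan3 varied by less than 1 SD between the remaining groups and naive brains. Across the 28 libraries, Tspan3 and Tspan7 had the highest correlation of any pair of the 7 genes on the log CPM scale (Pearson r = 0.71, and 0.72 on deviations from group means). Cd63 and Tspan2 had r = -0.55, and -0.26 on deviations from group means. All these libraries share depth and composition, and the correlations are descriptions without a test.

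Of the 23 further tetraspanin genes 14 were tested, and none passed in any of the 5 comparisons in edgeR or DESeq2. With 0.0483 to 3.24% of all genes called in edgeR, a count of 0 among 14 is near the background. Unadjusted p-values under 0.05 numbered 2 of 14 in demyelination against naive, beside 13.3% of all genes, and 2 in TNFR1ff remyelination against naive, beside 10.4%. They numbered 0 in TNFR1ff remyelination against demyelination, beside 6.65%, 0 in mgTNFR1KO against TNFR1ff remyelination, beside 7.49%, and 4 in mgTNFR1KO remyelination against naive, beside 18.9%. The most abundant were Tspan13, with 265 ± 21.8 CPM in demyelinated and 267 ± 21.6 CPM in naive brains, Tspan5, with 151 ± 18.1 CPM in demyelinated and 152 ± 16.7 CPM in naive brains, and Tspan14, with 38.8 ± 6.66 CPM in demyelinated and 41.3 ± 4.99 CPM in naive brains. Tspan5 and Tspan14 belong to the branch of the family that guides the protease ADAM10. Chosen after their values were seen, Cd53, a tetraspanin of blood and myeloid cells, had 7.23 ± 2.30 CPM in demyelinated and 3.20 ± 2.14 CPM in naive brains (log2 fold change 1.13 ± 0.422, adjusted p = 0.188), and Rom1, best known from photoreceptor discs, had 7.94 ± 2.47 CPM in demyelinated and 4.05 ± 1.73 CPM in naive brains (0.98 ± 0.34, adjusted p = 0.142). Tspan31, also named after its values were seen, had from 0 to 42 counts per library in mgTNFR1KO remyelination, against 0 to 13 in naive libraries (log2 fold change 1.93 ± 0.948, adjusted p = 0.261).

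**Figure D4:**
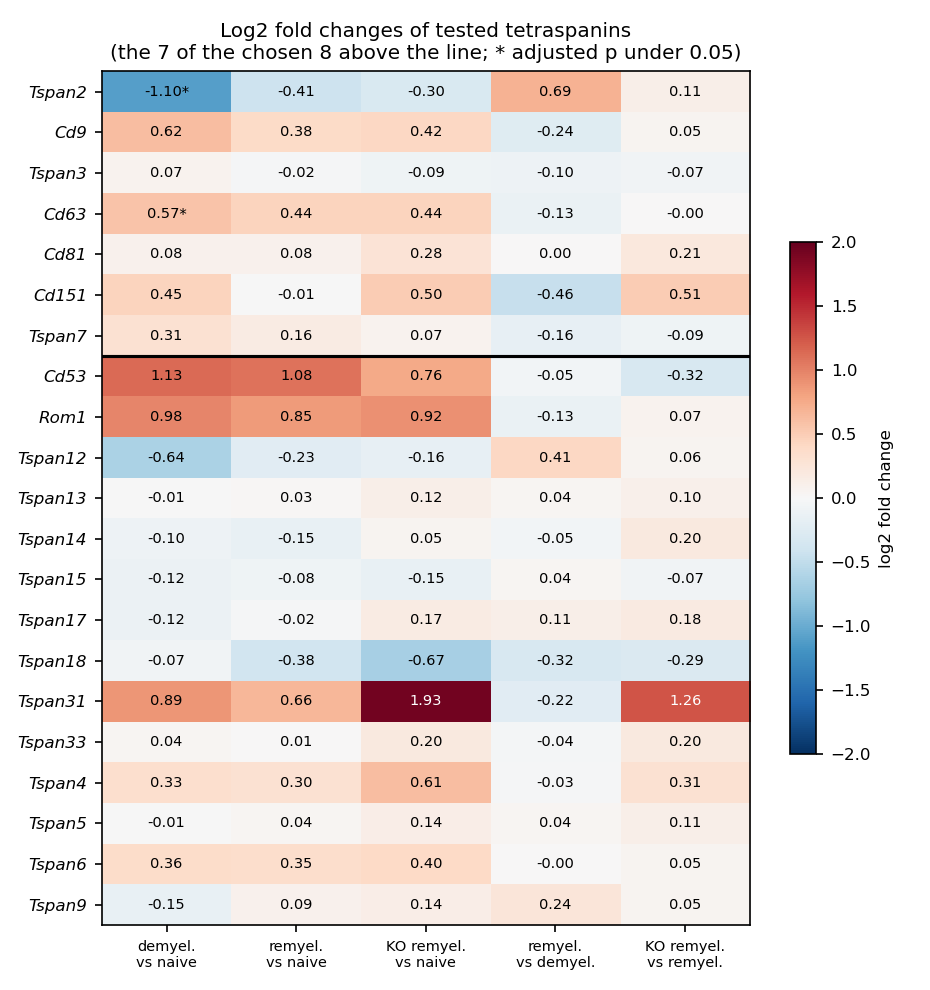
Log2 fold change (colour and printed value) of the 7 tested tetraspanins described here, above the line, and of 14 further tested tetraspanins, below it (rows), in 5 comparisons (columns); an asterisk marks an adjusted p under 0.05 in edgeR. The 2 asterisks stand at Tspan2 (-1.10) and Cd63 (0.57) in demyelination against naive, and the 14 further genes have none.

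Proteins that tetraspanins bind or travel with were followed through a list of 21 genes, of which 16 were tested. In demyelination against naive, TNFR1ff remyelination against naive or demyelination, and mgTNFR1KO against TNFR1ff remyelination, none passed in edgeR. Unadjusted p-values under 0.05 numbered 4 of 16 in demyelination against naive, beside 13.3% of all genes, and 3 in TNFR1ff remyelination against naive, beside 10.4%. They numbered 1 in TNFR1ff remyelination against demyelination, beside 6.65%, and 5 in mgTNFR1KO against TNFR1ff remyelination, beside 7.49%. DESeq2 called 1 partner in demyelination against naive and none in the other 3 comparisons. That 1 was Itgb4, a laminin-binding integrin subunit known as a partner of Cd151, with 1.62 ± 1.26 CPM in demyelinated and 5.0 ± 2.30 CPM in naive brains; its log2 fold change was -1.57 ± 0.469, with an adjusted p of 0.0722 in edgeR and 0.0355 in DESeq2, on 24 counts over 7 demyelination libraries and 69 over 7 naive libraries. Its level was 5.74 ± 3.85 CPM in mgTNFR1KO and 5.0 ± 2.14 CPM in TNFR1ff remyelination. In mgTNFR1KO remyelination against naive brains, Ifitm3 rose and Gria2 fell, 2 of 16 where 3.24% of all genes were called. Ifitm3, an interferon-induced antiviral membrane protein, had 50.4 ± 11.9 CPM in mgTNFR1KO and 26.4 ± 7.41 CPM in naive brains (log2 fold change 0.93 ± 0.172, adjusted p = 0.00105). Gria2, the AMPA receptor subunit linked to Tspan7 through PICK1, had 459 ± 42.3 CPM in mgTNFR1KO and 611 ± 93.6 CPM in naive brains (-0.41 ± 0.0962, adjusted p = 0.0113). Between mgTNFR1KO and TNFR1ff remyelination neither passed: Ifitm3 had 50.4 CPM in mgTNFR1KO and 35.6 CPM in TNFR1ff remyelination (adjusted p = 0.535), and Gria2 had 459 CPM in mgTNFR1KO and 539 CPM in TNFR1ff remyelination (adjusted p = 0.602). Of the abundant partners with no call, Cd47, an integrin-associated signal that restrains phagocytes, had 320 ± 90.8 CPM in demyelinated and 386 ± 97.8 CPM in naive brains. Sdcbp, the syntenin that binds Cd63, had 209 ± 21.4 CPM in demyelinated and 218 ± 19.7 CPM in naive brains, and Ap3d1, a subunit of the adaptor that sorts Cd63 to lysosomes, had 187 ± 22.5 CPM in demyelinated and 153 ± 17.8 CPM in naive brains.

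The genes whose log CPM most resembled each tetraspanin over the 28 libraries were found by Pearson correlation, at most 3 named per gene, among the tested genes with a symbol. For Tspan2 they included Cldn11 (r = 0.84), which encodes the claudin of myelin, and Prr18 (0.82). For Cd63 they were Lair1 (0.74), an inhibitory receptor of leukocytes, Abca1 (0.74), a cholesterol exporter, and Clec7a (0.73), a phagocyte lectin of activated microglia. On deviations from group means these were 0.46 and 0.35 for Tspan2 and 0.57, 0.56 and 0.41 for Cd63. For Cd81 and Tspan7 the values within groups were close to those over all libraries: Cd81 with Uba1 (0.84, and 0.84 within groups), Tubb3 (0.83 and 0.86) and Relt (0.82 and 0.81), and Tspan7 with Serpine2 (0.81 and 0.76), Gsg1l (0.80 and 0.78) and Gpx4 (0.79 and 0.73). Tspan3 came closest to Esf1 (0.78), Hnrnpk (0.75) and Slc25a4 (0.75), Cd151 to Abhd4 (0.75), Pcsk6 (0.69) and Tns3 (0.68), and Cd9 to Rpl35 (0.72), Il10rb (0.70) and Ggta1 (0.70). The libraries share their depth and composition, and the highest correlations over all tested genes with a symbol are chosen here, so these values describe likeness and no more.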

How the data were processed

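Whole-brain RNA was isolated with TRIzol and made into libraries with the QuantSeq 3′ FWD kit, per the labels' protocols. The authors deposited 1 RSEM table per library, and its expected counts, estimated reads per gene without normalisation, were used, per the file headers. The build GRCm39 and the tools STAR, RSEM, cutadapt, FastQC and edgeR are named in the submitters' processing notes; versions, settings and strand are not given in those sources. Other columns were not used. Between 96.59 and 97.69% of expected counts per library were whole within 0.005, and all were rounded. Symbols came from GENCODE M21 (GRCm38) by Ensembl identifier and matched 52081 of 55414 genes; unmatched genes held 10.76% of counts. On opposite strands other genes overlap Cd9, Cd81, Cd82, Cd151 and Tspan2, none at the gene's 3′ end. On the same strand the microRNA gene Mir7001 overlaps Cd82 and the ribosomal RNA gene Gm25885 overlaps Tspan7, also not at the 3′ end.

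Counts were scaled by TMM, filtered by filterByExpr (12423 genes) and tested with edgeR 4.0.16 (R 4.3.3; quasi-likelihood F test) in 1 fit of all 28 libraries with a mean per group. Benjamini-Hochberg adjustment ran over all tested genes, and an adjusted p under 0.05 was a call. The SE is the log2 fold change over the root of F, and intervals (95%) use the fit's degrees of freedom. The common biological coefficient of variation was 19.5%. The script was tested on simulated counts. No 2 replicate libraries agreed within sampling noise (chi-square per degree of freedom at least 2.53). Alternatives were DESeq2 1.42.0 (Wald test, and its size factors), library totals, the most abundant gene left out, no filter, the compared groups alone, a replicate block, leaving out each library, leaving out the 2 libraries that stood apart, and, added after seeing the data, Cd63 with Cd63-ps. Floors cover counting error only.

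The text names all 8 members, any further tetraspanin or partner with a call and the 3 most abundant without one per list, the 3 genes most alike each member, and the first 3 genes of each marker list as its defining markers; exceptions are stated, and 1 gene that these rules name is not reported here. The members and lists were chosen with earlier results of these data known. Same-numbered libraries of different groups correlated between -0.131 and 0.302, not above 0.1 in every pair, and the labels do not say that numbers mark a shared litter or day, so numbers were taken not to pair them.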

Additional observations from a re-analysis of the deposited data

Results flagged for a closer look

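In 32 groups of 7 libraries (8 genes in 4 groups), 3 held a library whose gap to its nearest neighbour exceeded 0.568 of the group's range, the 95% value of Dixon's test; chance flags about 1 in 20 groups. Cd9 had 42.0 CPM in TNFR1ff remyelination library 1, with 23.0 CPM next and a gap of 0.604 of the range. Without this library the log2 fold change of Cd9 in TNFR1ff remyelination against naive was 0.074 in place of 0.38, in TNFR1ff remyelination against demyelination -0.55 in place of -0.24, and in mgTNFR1KO against TNFR1ff remyelination 0.35 in place of 0.05. Tspan2 had 37.1 CPM in demyelination library 5, with 25.3 CPM next and a gap of 0.618. Without it TNFR1ff remyelination against demyelination was past the threshold for Tspan2 (log2 fold change 0.82, adjusted p = 0.0162 in edgeR). The same library had the lowest Cd63 value of its group, 79.1 CPM. Cd82 had 0.0 CPM in demyelination library 2, with 0.94 CPM next and a gap of 0.65, but the next value itself stood for few counts, since no library of that group held more than 3.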

How the results depend on the processing

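In edgeR's test and DESeq2, the fall of Tspan2 and the rise of Cd63 in demyelination against naive kept their direction and call in every alternative run, with log2 fold changes from -1.24 to -0.95 for Tspan2 and from 0.52 to 0.68 for Cd63 over the fits without 1 library. Tspan2 in TNFR1ff remyelination against demyelination (0.69) was past the threshold, as the 1 tetraspanin called, without the filter on low counts, with the replicate block, without mgTNFR1KO library 1 and naive library 1, and in DESeq2; leaving out 1 library gave 0.63 to 0.82 and 0 to 1 tetraspanins called. Cd63 in mgTNFR1KO remyelination against naive was past it, as the 1 tetraspanin called, without the filter (0.45), with the block (0.44) and in DESeq2 (0.45); without 1 library it lay between 0.38 and 0.55, and without the pair that stood apart it was 0.32. Cd63 in TNFR1ff remyelination against naive lay between 0.39 and 0.54 without 1 library. In mgTNFR1KO against TNFR1ff remyelination Cd63, at -0.00, turned sign with DESeq2 size factors (0.005), the most abundant gene left out (0.0034), the compared groups alone (0.0024), Cd63-ps added (0.0026) and DESeq2 (0.0054), and lay between -0.064 and 0.05 without 1 library. Other uncalled values near 0 turned sign: Cd81 in TNFR1ff remyelination against demyelination with DESeq2 size factors (-0.00023), library totals (-0.03), the most abundant gene left out (-0.0021), the compared groups alone (-0.0026) and DESeq2 (-0.00022), and with library totals Cd151 (0.00017) and Tspan3 (0.00028) in TNFR1ff remyelination against naive. Without 1 library, ranges that cross 0 were -0.12 to 0.085 for Cd151 and -0.056 to 0.013 for Tspan3 in TNFR1ff remyelination against naive, -0.047 to 0.069 for Cd81 in TNFR1ff remyelination against demyelination, -0.052 to 0.35 for Cd9 and -0.16 to 0.022 for Tspan7 in mgTNFR1KO against TNFR1ff remyelination, and -0.011 to 0.13 for Tspan7 in mgTNFR1KO remyelination against naive. Counts over all genes moved most: in TNFR1ff remyelination against naive 122 without the filter, 147 with the block and 130 in DESeq2, and 57 (without naive library 1) to 154 (without TNFR1ff remyelination library 1), beside 78; against demyelination 73 in DESeq2, beside 48; in mgTNFR1KO against TNFR1ff remyelination 28 without the filter and 13 in DESeq2, beside 6; in mgTNFR1KO remyelination against naive 243 with library totals, 608 with the block and 644 without the pair that stood apart, and 146 (without mgTNFR1KO library 7) to 736 (without mgTNFR1KO library 1), beside 403. The replicate block, whose numbers were not found to pair the libraries, changed no other call of a tetraspanin. The cause of these changes was not tested. Counts of 0 to 7 per library limit Cd82, and SEs near 0.25 limit Cd9.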
